A study of Mus musculus with 24 samples.

Results

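The set described here joins the myostatin pathway of skeletal muscle to a group of proteins that muscle secretes, the myokines. Its 9 members, Mstn, Fst, Fstl1, Acvr2a, Acvr2b, Fndc5, Il15, Metrnl and Bdnf, were taken by name from a table of 55416 genes. No cut on their measured values was used, but earlier results of these data were known when the set was chosen. RNA came from the gastrocnemius, a calf muscle of mixed fibre type, of 24 wild-type mice. The labels spell their strain C56BL6J, and the study's methods name it as C57BL/6J. In each sex 1 group was kept for 8 weeks in small mouse cages (SMC), which leave little room to move about, and the other, named sham, was not confined in this way. Each of the 4 groups (male sham, male SMC, female sham, female SMC) held 6 mice with 1 library each. The study's methods put wild-type mice of 8 weeks of age at the start of SMC experiments, and no engineered allele is named for these groups. By the same methods, food was withdrawn from all mice 4 hours ahead of dissection, which was done under ketamine and xylazine. Replicates are named by the running number in the sample labels, from 1 to 24. The question put to these genes was whether cage restriction moved them in each sex, and how they varied from mouse to mouse.

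Myostatin, encoded by Mstn, is a growth factor of the TGF-beta family that muscle fibres make and that limits muscle mass. It binds the type II activin receptors, encoded by Acvr2a and Acvr2b, whose type I partners phosphorylate SMAD2 and SMAD3. Follistatin (Fst) binds myostatin and activins and keeps them from the receptor, while the related glycoprotein follistatin-like protein (Fstl1) is made mainly by connective tissue cells and by muscle. Fndc5 encodes the membrane protein from which irisin is cleaved, Il15 a cytokine that muscle makes in quantity, Metrnl the meteorin-like hormone, and Bdnf brain-derived neurotrophic factor. These 4 are commonly named as exercise-linked myokines.

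Promoters are shown for Mstn, Acvr2a and Fndc5. Mstn and Acvr2a were chosen because their levels varied together from mouse to mouse, and Fndc5 as the most abundant of the 4 exercise-linked myokines. The windows are the 250 bases before the start of each gene from RefSeq on GRCm38.p6, with motif matches in capitals.
Mstn, chr1:53061390-53061639, plus strand: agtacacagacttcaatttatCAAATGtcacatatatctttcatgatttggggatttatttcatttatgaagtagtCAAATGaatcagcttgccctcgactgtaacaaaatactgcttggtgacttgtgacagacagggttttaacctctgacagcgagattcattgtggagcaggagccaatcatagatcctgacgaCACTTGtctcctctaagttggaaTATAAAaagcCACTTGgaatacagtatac
Acvr2a, chr2:48813859-48814108, plus strand: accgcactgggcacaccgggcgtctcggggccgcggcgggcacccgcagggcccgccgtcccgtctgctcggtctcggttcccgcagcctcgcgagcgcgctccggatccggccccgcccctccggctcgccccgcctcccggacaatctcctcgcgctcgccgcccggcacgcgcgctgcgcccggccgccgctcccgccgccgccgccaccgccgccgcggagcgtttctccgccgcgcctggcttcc
Fndc5, chr4:129136749-129136998, plus strand: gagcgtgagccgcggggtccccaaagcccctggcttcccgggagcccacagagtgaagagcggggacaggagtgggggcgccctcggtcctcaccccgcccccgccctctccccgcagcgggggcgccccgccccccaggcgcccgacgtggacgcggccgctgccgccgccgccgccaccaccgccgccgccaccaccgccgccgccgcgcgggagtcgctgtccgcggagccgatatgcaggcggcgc
The letters searched on both strands were the E-box CANNTG, the element AGGTCA, the TATA box TATAAA and the MEF2 site. The Mstn window held 4 E-boxes and 1 TATA box, and none of these matches overlapped another. The Acvr2a and Fndc5 windows held 0 matches of any of the 4 motifs. Over 32851 promoter windows of this length, 66.2% held an E-box, 12.4% a TATA box, 14% the AGGTCA element and 1.69% the MEF2 site. A match describes letters and not a bound site. No window was used here for Fst or Il15.

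All 9 members passed the filter on low counts. Levels are given as CPM, reads of a gene scaled to the library's total. Ordered by CPM per kilobase of gene model, the highest mean levels over the 24 libraries were those of Fndc5, at 18.7 ± 7.53 (SD, n = 24), and Mstn, at 18.1 ± 6.8. These 2 neighbours did not separate, since Fndc5 was the higher one in 15 of 24 libraries. Fstl1 followed at 10.3 ± 2.99 CPM per kilobase, Acvr2a at 7.51 ± 1.31 and Acvr2b at 5.42 ± 0.935. Mstn was above Fstl1 in 23 libraries, Fstl1 above Acvr2a in 21 and Acvr2a above Acvr2b in 23. Of the low members, Il15 at 3.14 ± 0.992 and Metrnl at 2.68 ± 0.719 CPM per kilobase also failed to separate, with Il15 higher in 16 of 24 libraries. Fst, at 0.987 ± 0.21, was below Metrnl in all 24 libraries, and Bdnf, at 0.325 ± 0.159, was below Fst in all 24. The count behind a value was therefore uneven, from 5 to 105 reads per library for Bdnf and from 686 to 2507 for Mstn. Lengths were those of an earlier annotation (GENCODE mouse release 21), so a per-kilobase level is approximate.

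**Figure D1:**
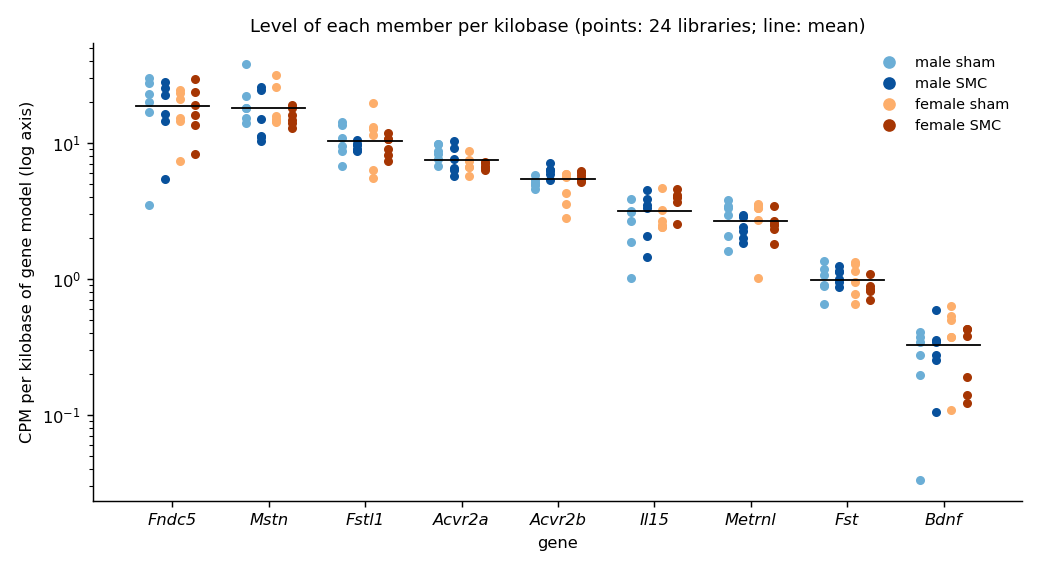
Level of each member in CPM per kilobase of gene model (log axis), with 1 point per library coloured by group and a line at the mean of 24 libraries. Fndc5 and Mstn lead with means of 18.7 and 18.1, and Bdnf is last with 0.325; the spread over libraries is widest for Bdnf and Fndc5.

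Members also differed in how steady their level was from mouse to mouse. The highest library was 18.9 times the lowest for Bdnf and 8.54 times the lowest for Fndc5, against 1.79 times for Acvr2a, 2.08 times for Fst and 2.5 times for Acvr2b. The biological coefficient of variation, the spread between mice of a group beyond counting error, was 0.518 for Bdnf, 0.468 for Fndc5, 0.314 for Mstn and 0.312 for Il15. It was 0.269 for both Fstl1 and Metrnl, 0.198 for Fst, 0.157 for Acvr2b and 0.154 for Acvr2a, beside a common value of 0.206 over all genes tested. By this coefficient the receptors varied least, while by the fold of highest over lowest library Fst came between them; Bdnf and Fndc5 varied most by both.

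Total counts per library lay between 23026627 and 36880413, and no pair of libraries of a group agreed within sampling noise. Fibre markers of all libraries were those of fast skeletal muscle, with summed fast fibre markers between 61130 and 141500 CPM. Male sham replicate 4 and female sham replicate 7 stood apart: the mean log2 CPM of 10 slow fibre genes was 1.417 and 1.222 there, against 5.837 to 6.974 and 6.233 to 7.436 in the other mice of their groups. Summed slow fibre markers were 86.43 CPM in the first and 72.91 CPM in the second, with medians of 1578 CPM over male sham and 2112 CPM over female sham. None of the 10 slow fibre genes was at 0 in all libraries. Both libraries are sham libraries, so results that move with them are also given without them, a choice made after seeing the data.

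Mstn was measured at 38.03 to 103.8 CPM in male sham (median 49.1) and at 27.9 to 69.8 CPM in male SMC (median 35.6). In females it lay between 38.5 and 85.2 CPM in sham (median 41.5) and between 34.6 and 51.0 CPM in SMC (median 41.5). Sham and SMC overlapped in both sexes, although 3 of 6 male SMC libraries and 2 of 6 female SMC libraries lay below every sham library of their sex. The log2 fold change, SMC against sham, was -0.37 ± 0.26 (SE) in males and -0.31 ± 0.26 in females, and -0.34 ± 0.18 averaged over the sexes. None of these passed the test (edgeR quasi-likelihood test with Benjamini-Hochberg adjustment over 16408 genes, FDR 0.67, 0.69 and 0.35). The highest sham libraries of each sex were male sham replicate 4 and female sham replicate 7. Without these 2 the log2 fold change of Mstn was -0.12 in males, -0.11 in females and -0.12 averaged over the sexes (edgeR, FDR 0.86, 0.84 and 0.71).

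Acvr2b, a high-affinity receptor of myostatin, was the member with the smallest p under SMC over all 24 libraries. In male sham it lay between 18.2 and 22.8 CPM (median 19.7), and in male SMC between 21.01 and 27.7 CPM (median 24.8). Female sham libraries ran from 11.1 to 23.4 CPM (median 19.4) and the SMC libraries from 20.3 to 24.5 CPM (median 22.2). Of the male SMC libraries, 5 of 6 lay above every male sham library; all 6 female SMC libraries lay above the female sham median, and 2 above every female sham library. Its log2 fold change was 0.28 ± 0.13 (SE) in males and 0.28 ± 0.13 in females, with an SE of 0.18 on a difference between the sexes of -0.003. Averaged over the sexes it was 0.28 ± 0.09, with an unadjusted p of 0.0054 and an FDR of 0.10 (edgeR), which did not pass the threshold of 0.05. Mean levels were 20.1 ± 1.62 (SD, n = 6) and 24.4 ± 2.23 CPM in male sham and SMC, and 18.4 ± 5.19 and 22.4 ± 1.68 CPM in female sham and SMC. Female sham replicate 7 was the lowest of all 24 libraries at 11.1 CPM, and without it the female log2 fold change was 0.18. Without it and male sham replicate 4 the averaged value was 0.22, with an unadjusted p of 0.0088 and an FDR of 0.11 (edgeR). With no scaling factors, where the median of all genes was itself at -0.14, the averaged value was 0.14 (edgeR, FDR 0.39). A gene annotated on the opposite strand lies within Acvr2b, with no overlap of exons.

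Acvr2a, the other type II receptor, had group means of 48.5 ± 6.80 (SD, n = 6) CPM in male sham, 43.3 ± 10.2 in male SMC, 40.4 ± 5.78 in female sham and 38.6 ± 1.93 in female SMC. Libraries ranged from 38.6 to 56.1 CPM in male sham (median 48.6), 32.5 to 58.3 in male SMC (median 40.1), 32.6 to 49.6 in female sham (median 39.8) and 36.04 to 41.0 in female SMC (median 37.98). All groups overlapped. SMC against sham gave log2 fold changes of -0.16 ± 0.12 (SE) in males and -0.07 ± 0.12 in females, neither past the test (edgeR, FDR 0.69 and 0.88). Males were above females by 0.22 ± 0.09 on the log2 scale averaged over housing, with an unadjusted p of 0.021 and an FDR of 0.16 (edgeR). Exons of Acvr2a overlap those of Orc4 on the opposite strand, and since whether counting used strand is not given in the sources used here, reads of the pair cannot be told apart.

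Fst and Fstl1 did not pass the test either. Fst lay between 3.002 and 6.25 CPM in male sham (median 4.51), 3.98 and 5.72 in male SMC (median 4.86), 3.02 and 6.16 in female sham (median 4.80) and 3.20 and 4.97 in female SMC (median 3.86). Its log2 fold change under SMC was 0.07 ± 0.17 (SE) in males and -0.26 ± 0.17 in females, with a difference between the sexes of 0.33 ± 0.24 (edgeR, FDR 0.98). Without the 2 sham libraries that stood apart it was 0.16 in males and -0.32 in females (edgeR, FDR 0.74 and 0.34). Fstl1 had group means of 52.1 ± 14.3 (SD, n = 6) CPM in male sham, 46.2 ± 3.53 in male SMC, 56.1 ± 25.1 in female sham and 47.2 ± 8.52 in female SMC. Its male SMC libraries kept within 42.7 and 52.0 CPM, while female sham libraries ran from 26.9 to 95.9 CPM. The log2 fold change of Fstl1 was -0.17 ± 0.22 (SE) in males and -0.25 ± 0.22 in females (edgeR, FDR 0.84 and 0.71). Female sham replicate 8 held the highest Fstl1 value and female sham replicate 7 the lowest, and the female difference was -0.03 without the first and -0.39 without the second. Without male sham replicate 4 and female sham replicate 7 it was -0.39 in females and -0.34 averaged over the sexes, with unadjusted p of 0.049 and 0.018 (edgeR, FDR 0.31 and 0.15), against -0.21 averaged over all 24 libraries. Fst shares exonic sequence with a gene on the opposite strand.

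Among the 4 exercise-linked myokines, Fndc5 was the most abundant and had the smallest averaged difference between SMC and sham over all 24 libraries. Its libraries lay between 9.73 and 83.1 CPM in male sham (median 58.8), 14.9 and 77.4 in male SMC (median 53.9), 20.3 and 67.2 in female sham (median 49.99) and 22.8 and 81.0 in female SMC (median 48.1). The next lowest libraries held 46.3, 40.2, 40.1 and 37.4 CPM in the same order. Log2 fold changes under SMC were -0.11 ± 0.39 (SE) in males and 0.06 ± 0.39 in females (edgeR, FDR 0.96 and 0.97). With an SE of 0.39 in each sex, even changes well above that size in either direction could have gone uncalled for this gene. Without male sham replicate 4 and female sham replicate 7 the values were -0.33 in males and -0.10 in females (edgeR, FDR 0.71 and 0.91).

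Il15 had higher group means under SMC in both sexes, at 7.05 ± 2.57 (SD, n = 6) against 5.94 ± 2.32 CPM in males and at 8.66 ± 1.56 against 6.72 ± 2.001 CPM in females. The libraries overlapped, with male sham at 2.32 to 8.82 (median 6.52), male SMC at 3.29 to 10.1 (median 7.71), female sham at 5.41 to 10.5 (median 5.80) and female SMC at 5.75 to 10.3 CPM (median 9.09). Of the 6 female SMC libraries, 5 were above the female sham median. The log2 fold change was 0.24 ± 0.26 (SE) in males, 0.36 ± 0.26 in females and 0.30 ± 0.19 averaged over the sexes, none past the test (edgeR, FDR 0.81, 0.62 and 0.42). In males the value was 0.07 without male sham replicate 4, the lowest library for Il15.

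Metrnl ran the other way in its means, at 4.56 ± 1.35 (SD, n = 6) CPM in male sham and 3.79 ± 0.72 in male SMC, and at 4.61 ± 1.54 in female sham and 4.02 ± 0.83 in female SMC. Medians were 5.01 and 3.72 CPM in male sham and SMC and 5.26 and 3.98 CPM in female sham and SMC, and the groups overlapped. The log2 fold change was -0.27 ± 0.23 (SE) in males and -0.20 ± 0.23 in females (edgeR, FDR 0.73 and 0.79). Female sham replicate 7 held 1.61 CPM of Metrnl where the other female sham libraries held 4.34 to 5.61, and the female value was -0.37 without it. Without this library and male sham replicate 4 the log2 fold change was -0.40 in males (unadjusted p 0.022, FDR 0.34), -0.37 in females (unadjusted p 0.032, FDR 0.26) and -0.38 averaged over the sexes, with an unadjusted p of 0.0028 and an FDR of 0.064 (edgeR), against -0.24 averaged over all 24. Metrnl then had the smallest averaged p of the members, still not past the threshold.

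Bdnf, the lowest member, gave the widest error. It lay between 0.207 and 2.55 CPM in male sham (median 1.92), 0.657 and 3.702 in male SMC (median 1.94), 0.682 and 3.91 in female sham (median 2.73) and 0.760 and 2.67 in female SMC (median 1.78). None of the 6 female SMC libraries was above the female sham median, although the groups overlapped. The log2 fold change was -0.60 ± 0.44 (SE) in females and 0.23 ± 0.44 in males, and the difference between the sexes was 0.83 ± 0.62 (edgeR, FDR 0.98). Without male sham replicate 4 and female sham replicate 7 these were -0.78 in females, with an unadjusted p of 0.034 and an FDR of 0.26 (edgeR), and -0.001 in males. Exons of Bdnf overlap an antisense gene, whose reads cannot be told apart from its own by the sources used here.

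**Figure D2:**
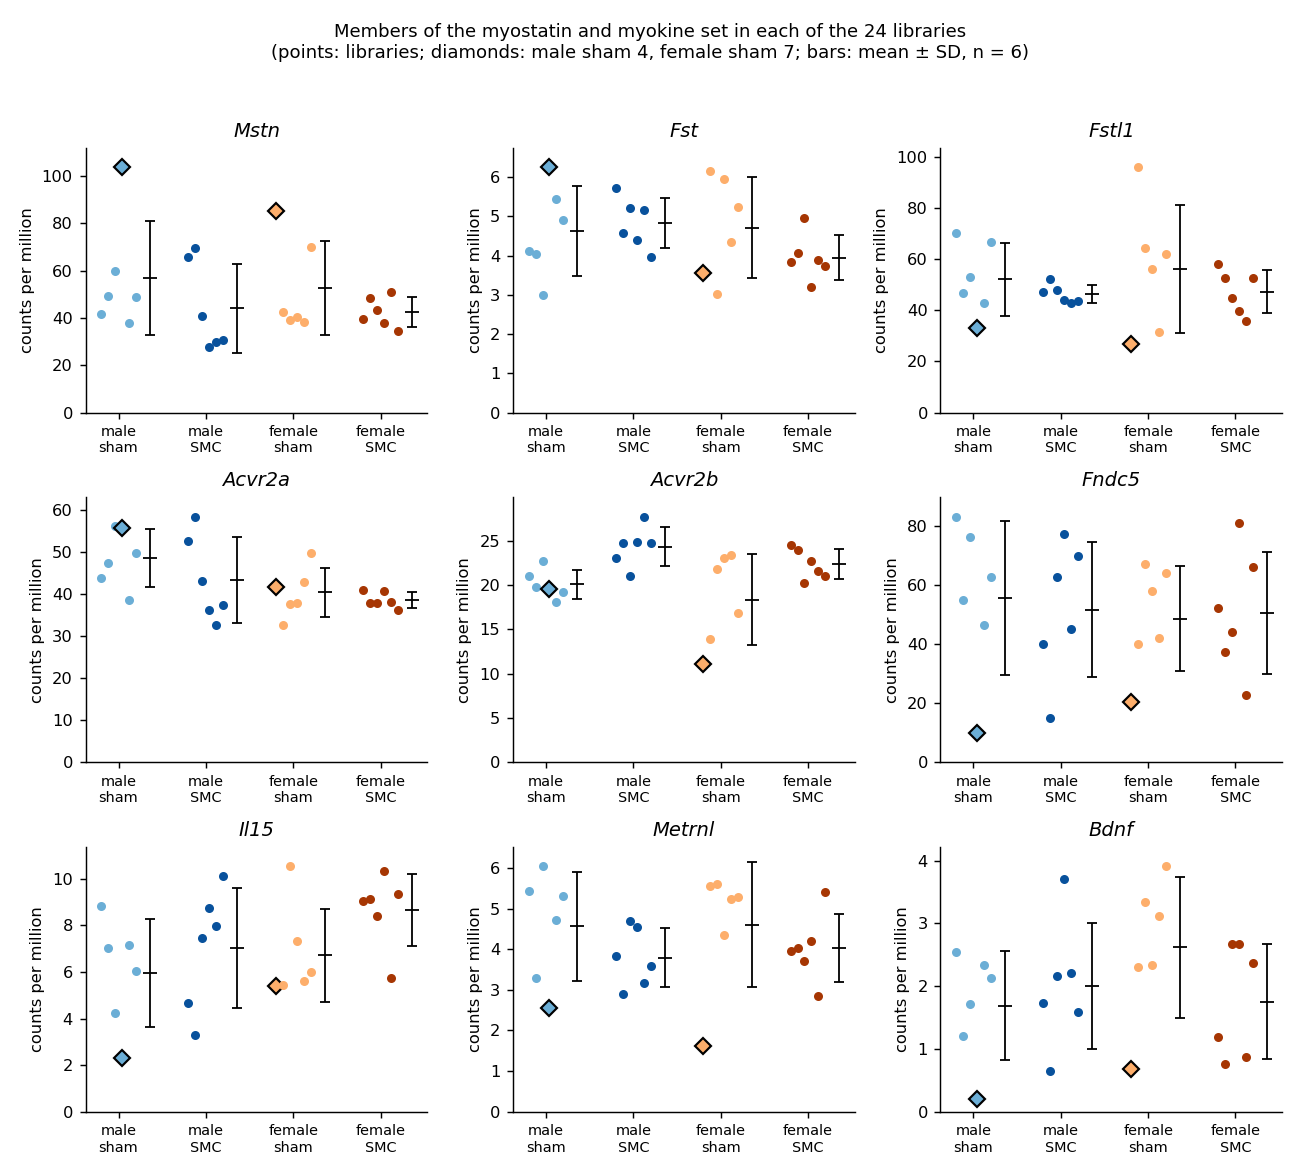
CPM of each member in every library, by group, with the mean ± SD (n = 6) beside the points and male sham replicate 4 and female sham replicate 7 drawn as diamonds. Those 2 libraries hold the highest Mstn values of their groups, 103.8 and 85.2 CPM, and the lowest values of Fndc5, Metrnl and Bdnf there; Acvr2b is higher in 5 of 6 male SMC libraries than in every male sham library.

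Over the set, 0 of 9 members were called at an FDR under 0.05 in any of the 5 comparisons (edgeR). The background was 0.0% of the 16408 genes tested in males, 0.341% in females, 2.36% averaged over the sexes, 0.0% for the difference between the sexes and 4.93% between males and females averaged over housing. In males, where no gene was called by edgeR, 1805 genes had an unadjusted p under 0.05, while DESeq2 called 128 and limma with voomWithQualityWeights 93. For the difference between the sexes the corresponding numbers were 841, 1 and 0. At an unadjusted p under 0.05 the members counted 1 of 9 in males, in females and averaged over the sexes, each time Acvr2b, against 11%, 12.5% and 17.5% of all genes. They counted 0 of 9 for the difference between the sexes, against 5.13%, and 1 of 9, Acvr2a, between males and females, against 19.3%. A count of 1 in 9 is close to the background shares under SMC. Without male sham replicate 4 and female sham replicate 7 it was 2 of 9 in males (Acvr2b and Metrnl), 3 of 9 in females (Fstl1, Metrnl and Bdnf) and 3 of 9 averaged (Fstl1, Acvr2b and Metrnl), against 12.3%, 16.3% and 20.2% of all genes, with 0 of 9 called. Averaged over the sexes, 2 of 9 members were higher and 7 lower under SMC, with a median log2 fold change of -0.12 beside -0.01 over all genes tested. The median size of this averaged change was 0.21 on the log2 scale for the members and 0.10 for all genes. It was 0.23 beside 0.126 in males, 0.26 beside 0.127 in females and 0.125 beside 0.109 between the sexes. For the difference of the response between the sexes the members had the smaller size, 0.099 beside 0.14. The part of the members' spread between mice in these sizes was not tested. No member was called under any alternative setting.

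**Figure D3:**
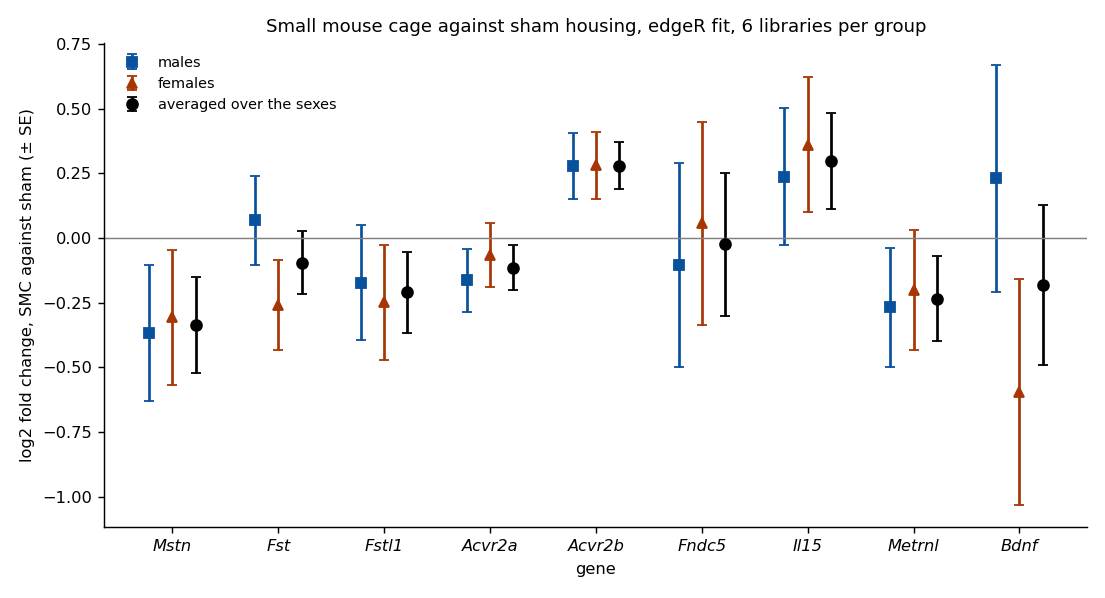
Log2 fold change of SMC against sham for each member, with the SE from the edgeR fit, in males (squares), in females (triangles) and averaged over the sexes (circles). Acvr2b sits at 0.28 in both sexes with SEs of 0.13, Mstn at -0.37 and -0.31 with SEs of 0.26, and Bdnf at 0.23 and -0.60 with SEs of 0.44.

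Between the sexes, averaged over housing, no member passed the test. Beside Acvr2a, the members with higher means in males were Mstn, Fst, Acvr2b and Fndc5, with log2 differences of 0.08 ± 0.18 (SE), 0.13 ± 0.12, 0.13 ± 0.09 and 0.11 ± 0.28. Lower in males were Il15 at -0.24 ± 0.19, Bdnf at -0.21 ± 0.31, Fstl1 at -0.07 ± 0.16 and Metrnl at -0.05 ± 0.16. Their FDR ran from 0.48 for Acvr2b to 0.90 for Metrnl (edgeR).

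While housing moved no member past the threshold, some members varied with each other from mouse to mouse. Each member's log2 CPM had its group mean subtracted, and the 36 pairs were compared over the 22 libraries without the 2 that stood apart, with 100000 permutations within groups and Benjamini-Hochberg adjustment over the 36 pairs. Mstn and Acvr2a varied together, with Pearson r = 0.852 (permutation p = 0.00018, adjusted 0.0045) and Spearman rho = 0.752 (permutation p = 0.0012, adjusted 0.0188). Mstn and Il15 varied in opposite directions, with r = -0.779 (permutation p = 0.00025, adjusted 0.0045) and rho = -0.768 (permutation p = 0.00021, adjusted 0.00756). Fndc5 and Il15 varied together, with r = 0.74 (permutation p = 0.00071, adjusted 0.00852) and rho = 0.67 (permutation p = 0.00157, adjusted 0.0188). These 3 pairs were those past the adjusted threshold in both measures. Over all 24 libraries, 0.987% of all genes tested followed Mstn at least as closely as Acvr2a did, and 0.0609% so followed Acvr2a. Shares at least as strongly opposite were 0.189% for Mstn and 0.213% for Il15 in their pair. In the pair of Fndc5 and Il15 they were 2.57% for Fndc5 and 0.756% for Il15, in the same direction. Other genes were thus related to these members as closely as the members to each other. Without the 2 libraries farthest from the median of the first gene, r was 0.765, -0.656 and 0.51. All libraries were scaled to their adjusted totals, so these are relations of relative levels.

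Another 4 pairs were past it in Pearson's r alone. These were Fndc5 with Metrnl (r = 0.638, permutation p = 0.00253, adjusted 0.0182; rho = 0.598, adjusted 0.0511), Fndc5 with Bdnf (r = 0.738, permutation p = 0.00224, adjusted 0.0182; rho = 0.616, adjusted 0.0511), Acvr2a with Il15 (r = -0.657, permutation p = 0.00956, adjusted 0.0492; rho = -0.632, adjusted 0.0511) and Metrnl with Bdnf (r = 0.591, permutation p = 0.00759, adjusted 0.0455; rho = 0.476, adjusted 0.122). Without the 2 libraries farthest from the median of the first gene, r was 0.463, 0.538, -0.53 and 0.488. Over all 24 libraries 11 pairs passed in both measures, 7 positive and 4 negative, and the 3 pairs above were among them. The 2 libraries moved r by unequal amounts. Mstn and Il15 went from -0.821 over 24 libraries to -0.779 over 22, while Acvr2b and Metrnl went from 0.447 to -0.141 and Fstl1 and Acvr2b from 0.127 to -0.431, none of the last 4 past the threshold. Mstn and Fndc5 had r = -0.733 over 24 libraries (permutation p = 0.00094, adjusted 0.00423) but -0.535 over 22 (permutation p = 0.0325, adjusted 0.117), and Mstn and Bdnf -0.736 over 24 (permutation p = 0.00045, adjusted 0.00231) but -0.513 over 22 (permutation p = 0.0238, adjusted 0.095). Fstl1 and Metrnl fell from r = 0.659 to 0.308. Fst and Acvr2b were in no pair past the threshold in both measures.

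**Figure D4:**
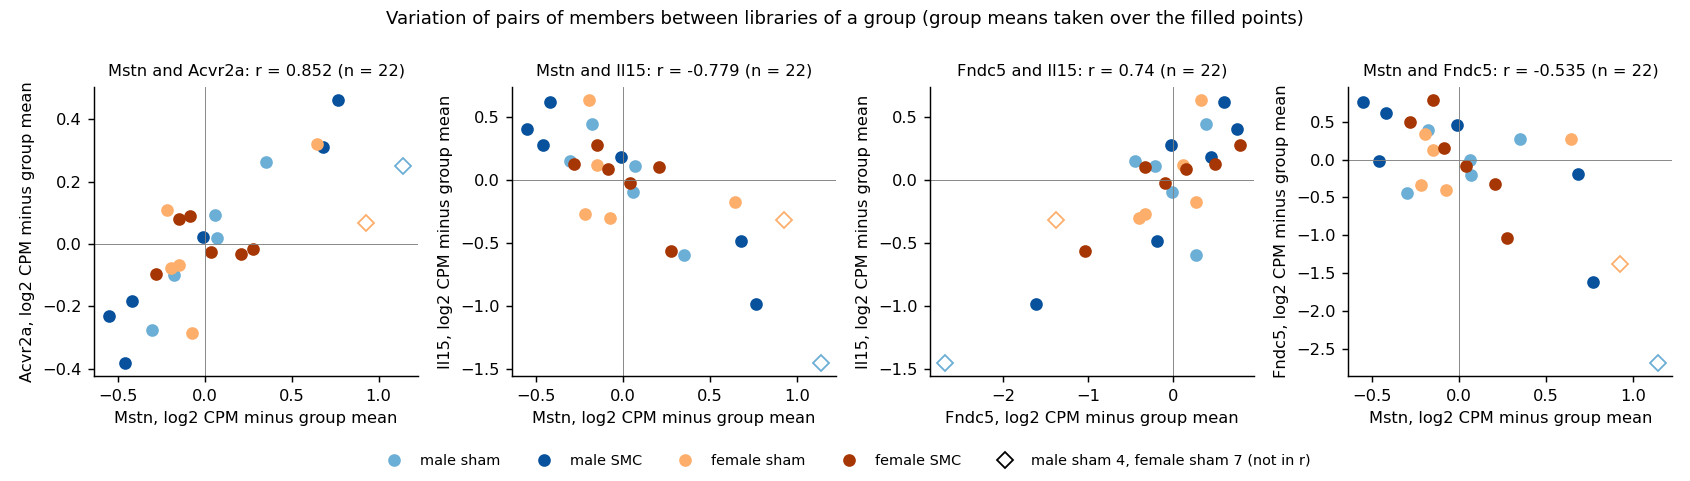
Log2 CPM minus the group mean for 4 pairs of members, 1 point per library coloured by group, with open diamonds for male sham replicate 4 and female sham replicate 7, which are not part of r or of the group means. Mstn follows Acvr2a (r = 0.852, n = 22) and runs opposite to Il15 (r = -0.779), Fndc5 follows Il15 (r = 0.74), and the relation of Mstn with Fndc5 is looser (r = -0.535).

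Levels of the members in single mice are given beside these pairs. Male sham replicate 4 held 103.8 CPM of Mstn, 2.18 times the mean of the other male sham libraries, with 0.15 times their Fndc5, 0.104 times their Bdnf, 0.348 times their Il15 and 0.517 times their Metrnl. Female sham replicate 7 held 1.85 times the Mstn of the other female sham libraries, with 0.374 times their Fndc5, 0.227 times their Bdnf, 0.309 times their Metrnl, 0.56 times their Acvr2b and 0.775 times their Il15. Its Il15 of 5.41 CPM lay just under the next value of its group, 5.46 CPM. Acvr2a was within the range of the other libraries in both, at 55.5 and 41.7 CPM. Male SMC replicate 14, which was not one of these libraries, held the highest Mstn (69.8 CPM) and the highest Acvr2a (58.3 CPM) of its group. It also held the lowest Fndc5 (14.9 CPM), Il15 (3.29 CPM), Metrnl (2.90 CPM) and Bdnf (0.657 CPM) there. Its mean log2 CPM of the slow fibre genes, 5.093, was likewise the lowest of male SMC, where the others held 5.485 to 7.288. Male sham replicate 4 and female sham replicate 7 were lower still, at 1.417 and 1.222.

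The members were set beside the slow fibre level of the same library, the mean log2 CPM of 10 genes of slow, oxidative fibres such as Myh7 and Tnni1, again within groups and over 22 libraries, with Benjamini-Hochberg adjustment over these 9 relations. Fndc5 went up with it (r = 0.87, permutation p = 3e-05, adjusted 0.00027; rho = 0.842), as did Il15 (r = 0.811, permutation p = 0.00024, adjusted 0.00072; rho = 0.825) and Bdnf (r = 0.761, permutation p = 0.00021, adjusted 0.00072; rho = 0.761). Mstn ran opposite to it (r = -0.675, permutation p = 0.00789, adjusted 0.0178; rho = -0.713). Metrnl passed in r (0.573, permutation p = 0.0108, adjusted 0.0194) but not in rho (0.468, permutation p = 0.0485, adjusted 0.0873). Acvr2a (r = -0.463), Fst (-0.284), Acvr2b (0.129) and Fstl1 (-0.0225) did not pass. Without the 2 libraries farthest from the median slow fibre level, r was 0.783 for Fndc5, 0.692 for Il15, 0.619 for Bdnf, -0.551 for Mstn and 0.38 for Metrnl. The share of all genes related as closely to the slow fibre level is not given here. In bulk muscle, more slow fibres in the sample and more RNA of these genes per fibre cannot be told apart. Slow fibre genes themselves had a median log2 fold change under SMC of 0.57 in males and 0.61 in females with 0 of 10 called. Both values include the 2 sham libraries that stood apart. The other male sham libraries had slow fibre levels of 5.837 to 6.974, beside 5.093 to 7.288 in male SMC. The other female sham libraries had 6.233 to 7.436, beside 6.141 to 7.78 in female SMC. The part of the slow fibre genes in the values of Fndc5, Il15, Bdnf and Mstn was not tested.

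**Figure D5:**
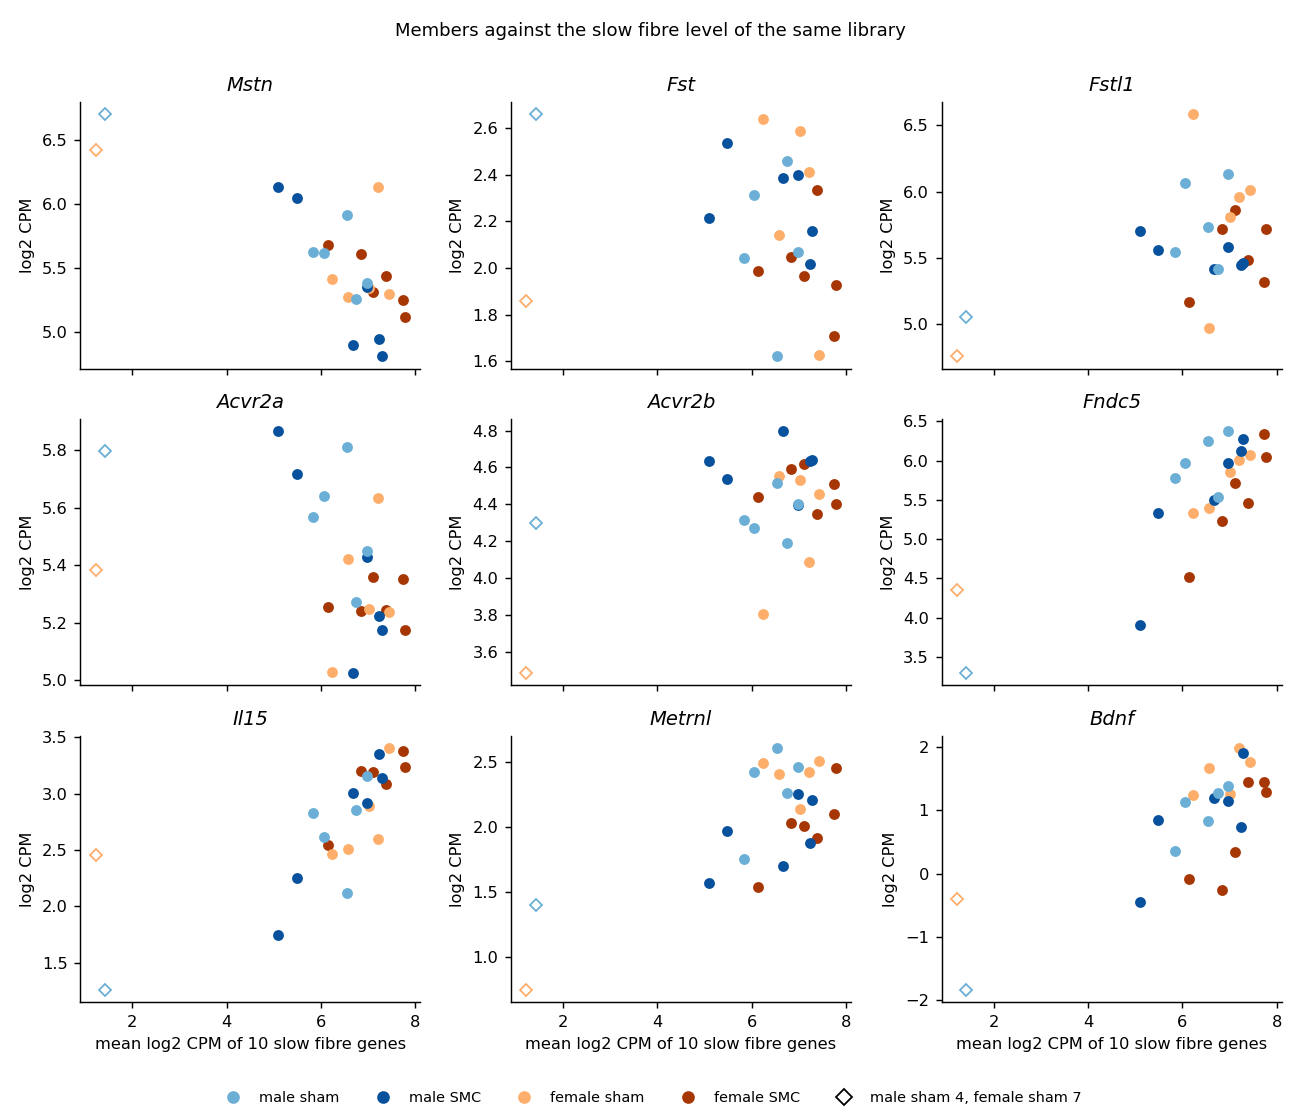
Log2 CPM of each member against the mean log2 CPM of 10 slow fibre genes in the same library, coloured by group, with open diamonds for male sham replicate 4 and female sham replicate 7 at slow fibre levels of 1.417 and 1.222. Fndc5, Il15 and Bdnf climb and Mstn descends along the axis, with within-group r of 0.87, 0.811, 0.761 and -0.675 over the other 22 libraries.

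Other genes whose log2 CPM varied most like each member's, after subtraction of group means over 24 libraries, are given as a description. For Fndc5 these were Ckmt2, the mitochondrial creatine kinase of muscle (r = 0.986), Mdh1, the cytosolic malate dehydrogenase (0.982), and Lpl, lipoprotein lipase (0.979). They stayed at 0.971, 0.968 and 0.976 over 22 libraries. For Mstn they were Fbxw11, part of a ubiquitin ligase (0.909), Ssr3, of the translocon of the endoplasmic reticulum (0.902), and Sar1b, a GTPase of vesicles that leave it (0.895). Fstl1 went with Cd34, Glipr2 and Vcan (0.93, 0.928 and 0.927), of which Cd34 marks progenitor and vessel cells and Vcan is an extracellular matrix proteoglycan. Fst went with Hpgd, Lox and Prpf38b (0.83, 0.787 and 0.76), Lox being the enzyme that cross-links collagen. Acvr2a went with Cdk19, Golt1b and Cd164 (0.863, 0.826 and 0.813), and Acvr2b less closely with Ets2, Gm11266 and Tyms (0.819, 0.804 and 0.788, but 0.672, 0.743 and 0.564 over 22 libraries). Il15 went with Asb18, Gm20712 and Clip4 (0.932, 0.919 and 0.915). Metrnl went with 1190002N15Rik, Egln3 and A730036I17Rik (0.916, 0.912 and 0.898, but 0.772, 0.74 and 0.647 over 22 libraries), Egln3 being an oxygen-sensing prolyl hydroxylase. Bdnf went with Zdhhc23, Plin2 and Lrrc52 (0.94, 0.932 and 0.93), Plin2 being a lipid droplet coat protein.

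Beyond the members, 28 of 29 further genes of the myostatin and activin pathway were tested, and 0 were called under SMC in males, in females or averaged over the sexes (edgeR). Their median log2 fold change was 0.02 in males and -0.01 in females, close to that of all genes. At an unadjusted p under 0.05, 1 of 28 was lower in males, and 1 was higher and 2 lower in females. Averaged over the sexes 2 were higher and 2 lower. The shares of all genes in either direction were 11%, 12.5% and 17.5%. Under SMC at an unadjusted p below the threshold were the ligand Tgfb2, higher in females by 0.34 ± 0.11 (SE, FDR 0.15) and averaged by 0.22 ± 0.08 (FDR 0.12), and the type I receptor Tgfbr1, with -0.21 ± 0.08 averaged (FDR 0.17) and -0.24 ± 0.12 in males (FDR 0.45). The co-receptor Tgfbr3 had -0.27 ± 0.12 averaged (FDR 0.22) and -0.37 ± 0.17 in females (FDR 0.36). In females Fstl3, a follistatin relative that binds myostatin, had -0.48 ± 0.18 (FDR 0.23), and averaged over the sexes Smurf1, a ubiquitin ligase of SMAD proteins, had 0.14 ± 0.06 (FDR 0.21). Smad3, the signal carrier of the pathway, had a difference between the sexes of 0.62 ± 0.23 (FDR 0.93), with 80.1 and 99.9 CPM in male sham and SMC and 110.7 and 89.6 CPM in female sham and SMC. Called between males and females averaged over housing were the ligand Tgfb3, at 41.3 ± 3.19 (SD, n = 12) CPM in males and 48.7 ± 4.79 in females, and Inha, the inhibin alpha subunit, at 1.41 ± 0.491 and 2.17 ± 0.383 CPM (edgeR log2 differences -0.24 and -0.62, FDR 0.0088 and 0.016). The background of that comparison was 4.93%, and 2 of 28 genes were called. Exons of Tgfb3 overlap genes on the opposite strand.

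In the BMP arm of the TGF-beta family, 18 of 20 genes were tested and 0 were called in any comparison (edgeR), beside the background shares above. At an unadjusted p under 0.05, 1 of 18 was lower in males and 0 passed in females. Averaged over the sexes 1 was higher and 1 lower. All genes had shares of 11%, 12.5% and 17.5%. Between the sexes 3 of 18 were higher in males, beside 19.3% of all genes. Fbxo30, a ubiquitin ligase repressed by BMP signalling, had -0.28 ± 0.14 (SE) in males (FDR 0.45) and -0.24 ± 0.09 averaged over the sexes (FDR 0.17), and the type I receptor Acvr1 had 0.20 ± 0.08 averaged (FDR 0.19). Between the sexes Bmpr1a was at 0.20 ± 0.07 (FDR 0.087), Fbxo30 at 0.25 ± 0.10 (FDR 0.14) and Id3 at 0.32 ± 0.15 (FDR 0.24), all higher in males on average, and Smad4, shared by both arms, at 0.15 ± 0.06 (FDR 0.15).

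Of 32 other secreted factors of muscle, 27 were tested and 1 was called averaged over the sexes, 1 of 27 beside a background of 2.36%. This was Ntf5, which encodes neurotrophin 4, a ligand of the same receptor as Bdnf. It was measured at 2.38 ± 0.630 (SD, n = 6) CPM in male sham, 3.82 ± 0.504 in male SMC, 2.80 ± 0.379 in female sham and 3.09 ± 0.370 in female SMC. Its log2 fold change was 0.41 ± 0.11 (SE) averaged over the sexes (edgeR, FDR 0.044), and 0.68 ± 0.15 in males (FDR 0.093), with a difference between the sexes of 0.54 ± 0.22 (FDR 0.93). The call held in 12 of 31 alternative settings. At an unadjusted p under 0.05, 1 of 27 was higher in males and 2 were lower in females. Averaged over the sexes 2 were higher and 2 lower. All genes had shares of 11%, 12.5% and 17.5%. Angptl4, an inhibitor of lipoprotein lipase, had -0.78 ± 0.27 in females (edgeR, FDR 0.19) and -0.46 ± 0.19 averaged (FDR 0.20), and Sparc, a matricellular protein, -0.40 ± 0.16 in females (FDR 0.29) and -0.26 ± 0.12 averaged (FDR 0.24). Between the sexes 3 of 27 were called, beside 4.93%. Igf1, a growth factor that promotes muscle growth, was higher in males at 26.1 ± 7.11 (SD, n = 12) against 14.9 ± 4.45 CPM (edgeR log2 difference 0.82 ± 0.17, FDR 0.0037). Nampt was also higher in males (0.22 ± 0.06, FDR 0.042) and Fgf2 lower (-0.45 ± 0.11, FDR 0.019), a gene whose exons overlap Nudt6 on the opposite strand. Metrn, the paralogue of Metrnl, had 0.18 ± 0.08 (FDR 0.20).

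Of 11 receptors and processing genes of the member myokines, 10 were tested, and 0 were called under SMC (edgeR). The background was 0.0% of all genes in males, 0.341% in females and 2.36% averaged over the sexes. Il15ra, which presents Il15, had -0.34 ± 0.14 (SE) in females (FDR 0.31) and -0.21 ± 0.10 averaged over the sexes (FDR 0.28). Itgb1, of the integrins, had -0.18 ± 0.08 in males (FDR 0.36). At an unadjusted p under 0.05, 1 of 10 was lower in males, in females and averaged, beside 11%, 12.5% and 17.5% of all genes. Between the sexes 2 of 10 were higher and 3 lower in males at that threshold, beside 19.3% of all genes. Itgb5, an integrin subunit named as an irisin receptor, was the 1 of 10 genes called between the sexes, beside a background of 4.93%, at 85.0 ± 12.4 (SD, n = 12) CPM in males and 71.9 ± 6.55 in females (log2 difference 0.24 ± 0.07, FDR 0.044), while Il15ra had -0.30 ± 0.10 (FDR 0.088), Itgb1 0.15 ± 0.05 (FDR 0.10) and Kit, named as a receptor of Metrnl, -0.42 ± 0.15 (FDR 0.11).

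Markers of other cells in the muscle were read beside these values. Summed fibroblast markers had medians of 777.2 CPM in male sham, 874.8 in male SMC, 1083 in female sham and 681.8 in female SMC, with 3 of 8 genes lower under SMC in females at an unadjusted p, beside 12.5% of all genes in either direction, and 0 called (edgeR). Tendon markers had medians of 287.5, 247.1, 394.5 and 278.7 CPM in the same order, with 4 of 6 lower under SMC in females at an unadjusted p, beside the same 12.5%, and 0 called. Fibroblasts and tendon cells are known sources of Fstl1 and Sparc, and the part of these markers in their values was not tested. Smooth muscle and pericyte markers had medians of 462.2, 515.1, 411.3 and 494.5 CPM, and 2 of 5, Acta2 and Myh11, were called higher under SMC averaged over the sexes (edgeR), beside a background of 2.36%. All 6 adipocyte genes were lower in males at an unadjusted p, beside 19.3% of all genes, with 1, Retn, called, beside 4.93%. The 5 genes of T and NK cells did not pass the filter on low counts, with sums of at most 1.19 CPM, so markers of the lymphocytes that respond to Il15 were near 0 in these libraries.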

How the data were processed

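The authors isolated total RNA with the Direct-zol kit, removed ribosomal RNA and made stranded libraries with the NEBNext Ultra II Directional kit. The submitters' processing notes list cutadapt 1.16, STAR 2.7.9a, featureCounts 1.6 and DESeq2 1.34.0 and the build GRCm39; which annotation was counted, and whether by strand, is not given in the sources used here. The deposited values are raw counts per Ensembl gene, 1 column per mouse, with no normalization by the authors. Symbols and gene lengths came from GENCODE mouse release 21 (GRCm38), matched by identifier for 52083 of 55416 genes; 0.361% of counts fell on the rest.

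Genes were filtered by filterByExpr, scaled by TMM and fitted with edgeR 4.0.16 (R 4.3.3) as 1 mean per group over 24 libraries. Quasi-likelihood tests were two-sided, with Benjamini-Hochberg adjustment over 16408 genes and a false discovery rate (FDR) under 0.05 as threshold. CPM used the scaled totals and log2 CPM a prior count of 2. The labels do not say that each library is a separate litter or cage, so p-values measure the spread between these mice. Totals set the precision of low genes, and errors cover counting and the spread between mice. On simulated counts for the female comparison (16408 genes), 74.7% of 99 genes with a log2 change of 1 and 35% of 100 with 0.5 were called. The changed genes were drawn at random from all tested, and genes varied independently of each other between libraries. These shares therefore do not hold for members of wide spread, such as Bdnf and Fndc5, or with libraries that stand apart. The alternatives were DESeq2 1.42.0, limma 3.58.1 with voomWithQualityWeights, RLE or no scaling, other filters, 1 sex alone and libraries left out.

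The members and lists were chosen with earlier results of these data known. Named were all members, each list gene with an FDR under 0.05 in a comparison, and the 3 genes most like each member. Also named were, per list and comparison, up to 4 genes with the smallest unadjusted p under 0.05, called genes counted among the 4. Cell type markers were named after their values were seen. One list gene that the rule names is not reported here.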

Additional observations from a re-analysis of the deposited data

Results flagged for a closer look

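Among 40 sets of 6 values (the members and the slow fibre level in each group), 7 held a library whose gap to the next was over 0.625 of the group's range, where chance gives about 2 for independent sets. In male sham replicate 4 these were Fndc5, with a log2 CPM of 3.293 against 5.536 to 6.378 in the other male sham libraries, Bdnf, with -1.843 against 0.362 to 1.389, and the slow fibre level, with 1.417 against 5.837 to 6.974. In female sham replicate 7 they were Metrnl, with 0.749 against 2.141 to 2.507, Bdnf, with -0.407 against 1.252 to 1.993, and the slow fibre level, with 1.222 against 6.233 to 7.436. The other was Il15 in female SMC replicate 23, with 2.541 against 3.081 to 3.377, in a library whose slow fibre level of 6.141 was the lowest of female SMC. The part of fibre composition in the low values of the members was not tested. All sets of a group share the same 6 libraries and are not independent, so the 7 are not separate findings. The slow fibre level, by which male sham replicate 4 and female sham replicate 7 stood apart, is itself counted among the 40.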

How the results depend on the processing

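No member passed the FDR threshold under any of the 1408 alternative values, and the direction was kept in 1346 and reversed in 62. Genes called in males, 0 by edgeR, were 128 with DESeq2 and 93 with voomWithQualityWeights, and 0 to 78 with 1 library left out, the highest without male sham replicate 5. In females, 56 became 268 with DESeq2, 37 with RLE scaling, 215 with no scaling, 16 with voomWithQualityWeights, 14 with the 12 libraries of the sex and 155 without male sham 4 and female sham 7, and 0 (without female SMC replicate 22) to 147 (without female sham replicate 9) with 1 library left out. Averaged over the sexes, 388 became 778 with DESeq2, 1861 with no scaling and 189 with no filter, and 236 to 501 with 1 left out. For the difference between the sexes 0 became 1 with DESeq2, and 0 to 1 with 1 left out. With no scaling the median of all genes moved to -0.13 in males, -0.15 in females and -0.14 averaged, and the calls were 13 higher and 202 lower in females (20 and 36 by TMM), 68 and 1793 averaged (169 and 219) and 381 and 215 between the sexes (392 and 417). Between the sexes 809 became 1420 with voomWithQualityWeights and 1268 without the 2 libraries, and 618 to 1086 with 1 left out. The cause was not tested.

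Values of members that changed direction were as follows. Acvr2b had a difference between the sexes of 0.002 with at least 10 counts in every library, 0.067 with voomWithQualityWeights, 0.006 with no scaling and 0.082 without the 2 libraries (-0.081 to 0.092 with 1 left out). Bdnf in males was -0.001 without the 2 libraries (-0.038 to 0.415). Fndc5 in females was -0.075 with voomWithQualityWeights, -0.076 with no scaling and -0.099 without the 2 libraries (-0.124 to 0.210). Fst in males was -0.050 with no scaling (-0.028 to 0.163). With voomWithQualityWeights the difference between the sexes was -0.048 for Fstl1 (-0.143 to 0.205) and 0.028 for Metrnl (-0.199 to 0.089), and Mstn between the sexes was -0.012 (-0.045 to 0.176). With 1 library left out, direction also changed for Acvr2a in females (-0.123 to 0.010), Fndc5 averaged (-0.137 to 0.071), in males (-0.332 to 0.087) and in the difference between the sexes (-0.391 to 0.032), Fstl1 between the sexes (-0.140 to 0.042), Il15 (-0.301 to 0.025) and Mstn (-0.261 to 0.181) in the difference between the sexes, and Metrnl between the sexes (-0.134 to 0.010). Of the named list genes, Tgfb3, Inha and Igf1 were called in all 31 alternatives, Fgf2 in 30, Itgb5 in 14, Nampt in 13 and Ntf5 in 12. No paired analysis was possible because the groups share no replicate number. Depth limits Bdnf most, with 5 to 105 reads per library.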
